A study of Mus musculus with 8 samples.

Results

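The genes described here make the enzymes, carriers and regulators that remove peroxides and superoxide, keep thiols reduced and bind metals. They were chosen by name, with earlier results of these data known, as a list of 46 antioxidant, glutathione and thioredoxin genes. Shares of this list set beside those of all genes or probe sets below are therefore description only. Of these, 42 had a probe set that the platform annotation assigns to exactly 1 gene, out of 14860 such genes in the table. Each of the 42 had 1 probe set of this kind. The other 4, G6pdx, Prdx5, Prdx6 and Sod1, were matched to no such probe set and were not analysed here.

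RNA came from male C57BL/6 mice, 8 weeks old and not fasted, and from the tibialis anterior, a fast muscle along the shin. In each of 4 experiments the left muscle was electroporated with 25 µg of empty pcDNA3 plasmid and the right with 25 µg of pCMV-ATF4-FLAG, a plasmid for FLAG-tagged mouse ATF4, and RNA was taken on day 11. ATF4 is a transcription factor that stressed cells make more of, known for turning on genes of amino acid supply. The 8 arrays, 4 per group, answer which of these mRNAs differ between the muscles.

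Both groups were electroporated and both received plasmid, so the comparison shows neither effect. The leg and the plasmid cannot be told apart, since ATF4 was always on the right. The CMV promoter is not restricted to muscle fibres, and the RNA is that of the whole muscle. The labels leave out how many mice went into an experiment. In such bulk RNA, fewer cells of a type and less RNA per cell cannot be told apart. All 12 muscle fibre markers examined, among them Acta1, Ckm and Mb, had signals between the 98.2 and 99.99 percentiles of all probe sets. For the Atf4 probe set the mean difference was 0.18 (SE 0.11, adjusted p = 0.846), and the single pairs gave 0.24, 0.31, 0.24 and -0.05 in order of experiment. It therefore does not bear out the ATF4 label in experiment 4, and whether it reads the plasmid's transcript was not tested. Below, ATF4 names the arrays by their label alone. Differences are ATF4 minus empty vector in log2 signal over n = 4 pairs. Both kinds of p-value are limma's, and the adjusted one follows Benjamini-Hochberg over all 16755 probe sets.

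Cells sense oxidants and reactive chemicals through KEAP1, which holds the transcription factor NRF2 (gene Nfe2l2) for destruction until its cysteines are modified. Free NRF2 then binds antioxidant response elements and turns on genes for quinone reduction, glutathione synthesis, thioredoxin recycling and NADPH supply. Peroxiredoxins and glutathione peroxidases remove peroxides and are recharged by thioredoxin or glutathione, which in turn draw on NADPH. Contracting muscle makes superoxide and hydrogen peroxide, so fibres carry these systems in the cytosol and in mitochondria. ATF4 is itself linked to glutathione through the supply of cysteine, glycine and glutamate.

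With 4 pairs, no difference of the 42 measured genes passed the adjusted cutoff, which does not show that they were unchanged. Of the 42 genes, 0 had an adjusted p under 0.05 in limma, against 0.0179% of all probe sets, which were 3 probe sets, all higher. At an unadjusted p under 0.05, 5 of the 42 (11.9%) were lower, where 2.77% of all probe sets were, and 0 were higher, where 3.23% were. In either direction the background was 6.00%. The 5 genes were Nqo1, Sod2, Prdx1, Glrx2 and Gstm5, from 5 different systems. This count was not stable: it was 4, 0, 5 and 3 when experiments 1, 2, 3 and 4 were left out in turn. Of these, 3, 0, 2 and 2 were lower. Of all probe sets, 6.71%, 5.20%, 4.58% and 6.03% then had such a p. Without experiment 2, which left fewer pairs, the 5 genes still differed by -0.32 (Nqo1), -0.31 (Sod2), -0.53 (Prdx1), -0.32 (Glrx2) and -0.32 (Gstm5). Without the pairing in the fit the count was 1, Prdx1, where 3.63% of all probe sets had such a p.

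Over the 42 genes the median difference was -0.04, against 0.02 over all 14860 genes, and 26 of 42 (61.9%) were lower, against 45.5% of all genes. In all 4 experiments 6 of the 42 (14.3%) were lower, where 6.64% of all probe sets were, and 1 (2.38%) was higher, where 8.25% were. For 0 of the 42 did the 4 ATF4 arrays lie wholly above or below the 4 empty-vector arrays, which occurred for 1.41% and 0.752% of all probe sets. A difference of over 1.2-fold, in either direction, was seen for 13 of the 42 (31.0%), where 14.8% of all probe sets had one. The 95% interval of the difference stayed within 1.5-fold in both directions for 30 of the 42 genes and within 2-fold for 41, the exception being Glrx3. The muscle fibre markers were lower with ATF4 as well, 12 of 12 of them, with a median of -0.05 and with 0 at an unadjusted p under 0.05. Averaged over these markers, experiments 1 to 4 gave differences of 0.05, -0.07, -0.07 and -0.15, and their part in the values of the 42 genes was not tested.

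**Figure D1:**
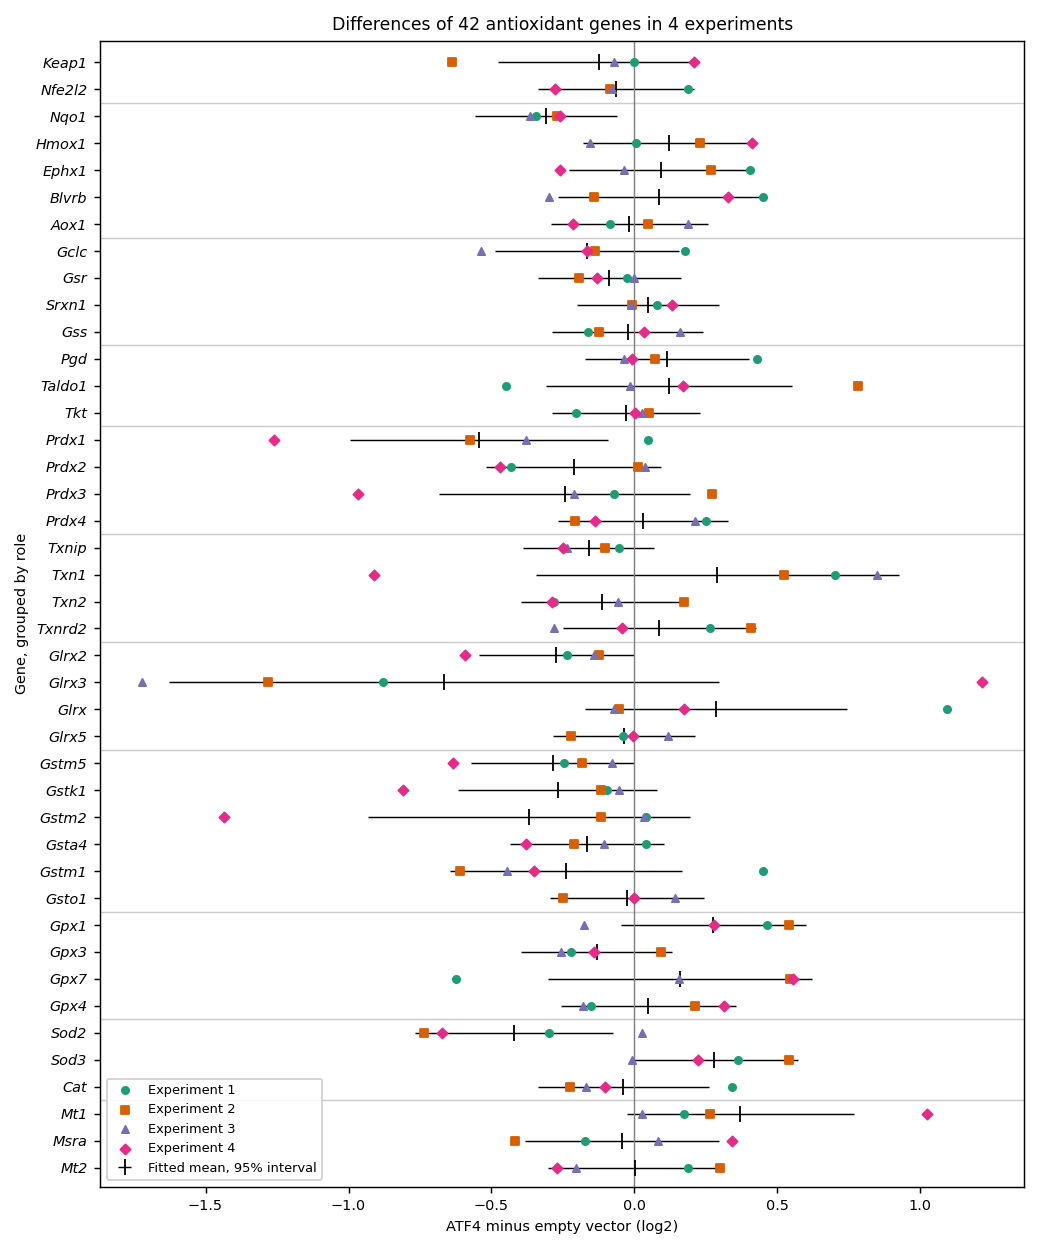
Difference between the ATF4 and the empty-vector array (log2, horizontal axis) for each of the 42 genes, grouped by role with grey lines between groups. Coloured symbols are the 4 experiments, and the black tick and bar give the fitted mean and its 95% interval. The 4 values of Nqo1 lie close together below 0, whereas those of Glrx3 span from -1.72 to 1.22.

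The regulators stood at similar levels in both groups. Nfe2l2 had log2 signals of 5.78, 5.90, 6.47 and 6.74 with empty vector and 5.97, 5.81, 6.39 and 6.46 with ATF4 in experiments 1 to 4. The higher values were those of experiments 3 and 4 in both legs, and the groups overlapped. The means were 6.22 ± 0.46 and 6.16 ± 0.32 (SD, n = 4), a difference of -0.06 (SE 0.12, 95% interval -0.34 to 0.21, unadjusted p = 0.607, adjusted p = 0.945). The sign was not stable: the difference was 0.008 without experiment 4 and 0.02 with quantile normalization. Keap1, which marks NRF2 for degradation, had signals of 5.49, 5.61, 5.05 and 4.91 with empty vector and 5.49, 4.97, 4.98 and 5.12 with ATF4. Its largest gap, -0.64, came from experiment 2. It differed by -0.13 (SE 0.15, unadjusted p = 0.436, adjusted p = 0.913) and by 0.05 without experiment 2.

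Nqo1, a quinone reductase and a classical NRF2 target, had the smallest p-value of the 42 genes and the most even difference. Its signals were 4.26, 4.50, 4.18 and 4.58 with empty vector and 3.92, 4.23, 3.82 and 4.32 with ATF4. The ATF4 array was lower in 4 of 4 pairs, by -0.34, -0.27, -0.36 and -0.26, although the experiments differed enough in level for the groups to overlap. The means were 4.38 ± 0.19 and 4.07 ± 0.24 (SD, n = 4), a difference of -0.31 (SE 0.11, 95% interval -0.56 to -0.06, unadjusted p = 0.0210, adjusted p = 0.779). Leaving out each experiment in turn moved the difference only between -0.33 and -0.29. The probe set stood at the 42.8 percentile of signal, below the middle of the array, and background cannot be separated from low expression in these values.

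Of the other 4 genes of quinone, haem and xenobiotic handling, 3 were higher and 1 lower on average. Hmox1, the inducible haem oxygenase, differed by 0.12 (SE 0.13), Blvrb, a biliverdin reductase, by 0.08 (SE 0.15), Ephx1, a microsomal epoxide hydrolase, by 0.09 (SE 0.14) and Aox1, an aldehyde oxidase, by -0.02 (SE 0.12). Hmox1 differed by 0.004, 0.23, -0.16 and 0.41 in experiments 1 to 4, so no direction was shared by the pairs. Their unadjusted p-values ran from 0.378 to 0.886.

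Of the 4 genes of glutathione synthesis and recycling, 3 were lower and 1 higher on average. Gclc, the catalytic subunit of the rate-limiting enzyme of glutathione synthesis, had signals of 3.99, 4.36, 4.62 and 4.23 with empty vector and 4.17, 4.22, 4.08 and 4.07 with ATF4. The largest gap, -0.54, was that of experiment 3. Gclc differed by -0.17 (SE 0.14, unadjusted p = 0.268, adjusted p = 0.871), and by -0.04 without experiment 3. Gss, glutathione synthetase, differed by -0.02 (SE 0.11), Gsr, glutathione reductase, by -0.09 (SE 0.11) and Srxn1, sulfiredoxin, which repairs overoxidised peroxiredoxins, by 0.05 (SE 0.11). Gsr was lower in 4 of 4 pairs but by as little as -0.001 in experiment 3. Srxn1 had the narrowest spread among the empty-vector arrays, 4.84 ± 0.05 (SD, n = 4), and its 95% interval ran from -0.20 to 0.30.

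Of the 4 genes of NADPH supply listed, 3 were measured, all in the pentose phosphate pathway. Pgd, phosphogluconate dehydrogenase, had signals of 4.59, 4.68, 4.85 and 4.61 with empty vector and 5.02, 4.75, 4.82 and 4.60 with ATF4. Apart from experiment 1, where the ATF4 array was higher by 0.43, the pairs nearly coincided. It differed by 0.11 (SE 0.12, unadjusted p = 0.386, adjusted p = 0.896), and by 0.009 without experiment 1. Taldo1, transaldolase, differed by -0.45 in experiment 1 and 0.78 in experiment 2 and averaged 0.12 (SE 0.19). Tkt, transketolase, differed by -0.03 (SE 0.11).

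Among the peroxiredoxins, Prdx1 was lower in 3 of 4 pairs. Prdx1, a cytosolic thioredoxin-dependent peroxidase, had signals of 6.85, 6.90, 6.90 and 7.63 with empty vector and 6.90, 6.32, 6.52 and 6.37 with ATF4. The empty-vector array of experiment 4 stood above the rest, the ATF4 array of experiment 1 did not differ from its partner by more than 0.05, and the groups overlapped through that array. The means were 7.07 ± 0.38 and 6.53 ± 0.26 (SD, n = 4), a difference of -0.54 (SE 0.20, 95% interval -0.99 to -0.09, unadjusted p = 0.0242, adjusted p = 0.786). Without experiment 4 it was -0.30, and without experiment 1 it was -0.74.

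Prdx1 and Gstm5 were the pair among the 5 lower genes whose promoter windows held the letters of an antioxidant response element, TGACNNNGC, on either strand. The windows are shown because this element is what NRF2 binds and both genes were lower, not higher. They come from the RefSeq promoter table for GRCm38.p6, 250 bases before to 50 bases after the listed start, on the strand of the gene, with the match in capitals. Prdx1 lies at chr4:116685349-116685648 (plus strand) and Gstm5 at chr3:107895604-107895903 (plus strand).
Prdx1: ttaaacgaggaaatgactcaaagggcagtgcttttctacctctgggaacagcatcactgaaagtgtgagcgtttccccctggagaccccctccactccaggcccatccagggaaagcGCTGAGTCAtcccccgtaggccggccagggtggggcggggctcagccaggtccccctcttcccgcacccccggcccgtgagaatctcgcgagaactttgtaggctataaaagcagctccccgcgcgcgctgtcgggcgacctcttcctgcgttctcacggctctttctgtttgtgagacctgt
Gstm5: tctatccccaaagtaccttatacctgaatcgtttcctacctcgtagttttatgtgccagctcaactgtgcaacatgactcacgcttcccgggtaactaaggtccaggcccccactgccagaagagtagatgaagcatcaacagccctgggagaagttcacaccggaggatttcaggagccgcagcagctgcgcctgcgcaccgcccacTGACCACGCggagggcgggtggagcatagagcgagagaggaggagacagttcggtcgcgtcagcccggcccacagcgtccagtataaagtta
The Prdx1 match reads on the minus strand and the Gstm5 match on the plus strand. Of the 42 genes, 36 matched the table by Entrez identifier, and 5 of these 36 (13.9%) held the element: Prdx1, Gstm5, Nfe2l2, Srxn1 and Mt2. Of all 27025 genes with a listed window, 12.5% did. The 5 genes with the letters had a median difference of -0.06, with 3 of 5 lower, and the 31 without had -0.03, with 19 of 31 lower. TGATGNAA, the core letters of the composite element to which ATF4 binds with C/EBP proteins, was found in 0 of the 36 windows and in 4.06% of all windows. A match is a run of letters, not a measured binding site, and no match covers this window only.

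The other peroxiredoxins were split. Prdx2, a second cytosolic peroxidase, had signals of 6.87, 6.09, 6.34 and 6.77 with empty vector and 6.44, 6.10, 6.38 and 6.30 with ATF4. Experiments 1 and 4 showed lower ATF4 arrays, by -0.43 and -0.47, and experiments 2 and 3 no gap. The difference was -0.21 (SE 0.13, unadjusted p = 0.146, adjusted p = 0.846), and without experiment 4 or 1 it was -0.13 or -0.14. Prdx3, the mitochondrial peroxidase, differed by -0.24 (SE 0.19) and by -0.97 in experiment 4 alone. Prdx4, of the endoplasmic reticulum, differed by 0.03 (SE 0.13).

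Thioredoxins and their partners gave no common direction. Txnip, which binds and inhibits thioredoxin and restrains glucose uptake, had signals of 8.44, 8.19, 8.55 and 7.56 with empty vector and 8.38, 8.08, 8.31 and 7.31 with ATF4. Both muscles of experiment 4 stood below all the others, and within pairs the ATF4 array was lower in 4 of 4. Txnip differed by -0.16 (SE 0.10, unadjusted p = 0.145, adjusted p = 0.846), and by -0.08 with quantile normalization. Txn1, cytosolic thioredoxin, had signals of 3.87, 3.10, 2.51 and 4.30 with empty vector and 4.58, 3.63, 3.36 and 3.39 with ATF4. It was higher in experiments 1 to 3, by 0.70, 0.52 and 0.85, and lower in experiment 4, by -0.91. Over all experiments the difference was 0.29 (SE 0.27, unadjusted p = 0.321). Without experiment 4 it was 0.69 (unadjusted p = 0.00213, adjusted p = 0.552). Txn2 and Txnrd2, the mitochondrial thioredoxin and its reductase, differed by -0.11 (SE 0.12) and 0.09 (SE 0.15).

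Glutaredoxins use glutathione to reduce mixed disulfides or carry iron-sulfur clusters. Glrx2, the mitochondrial enzyme, had signals of 7.95, 7.38, 7.91 and 8.06 with empty vector and 7.71, 7.26, 7.77 and 7.47 with ATF4. The ATF4 array was lower in 4 of 4 pairs, most in experiment 4 (-0.59). The means were 7.83 ± 0.30 and 7.55 ± 0.23 (SD, n = 4), a difference of -0.27 (SE 0.12, unadjusted p = 0.0483, adjusted p = 0.827), or -0.17 without experiment 4. Glrx3, a cytosolic monothiol glutaredoxin, had signals of 4.53, 4.63, 3.50 and 2.76 with empty vector and 3.65, 3.35, 1.77 and 3.97 with ATF4. Experiments 1 to 3 put the ATF4 array lower by -0.88, -1.28 and -1.72, and experiment 4 higher by 1.22. The difference was -0.67 (SE 0.42, unadjusted p = 0.149, adjusted p = 0.846). Without experiment 4 it was -1.29 (unadjusted p = 0.000340, adjusted p = 0.316).

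Glrx3 and Txn1 differed in opposite directions, and in both experiment 4 ran against the other 3. Their probe sets stood at the 17.4 and 19.4 percentiles of signal, the lowest of the 42 genes, where background weighs most. Glrx, the main cytosolic glutaredoxin, had signals of 4.96, 5.45, 6.15 and 5.53 with empty vector and 6.05, 5.39, 6.08 and 5.70 with ATF4. Its difference of 0.28 (SE 0.20, unadjusted p = 0.189, adjusted p = 0.853) was 0.02 without experiment 1. Glrx5, which serves iron-sulfur cluster assembly in mitochondria, differed by -0.04 (SE 0.11).

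All 6 glutathione S-transferases on the list were lower on average, with a median of -0.25, where 45.5% of all genes were lower. Of 9 further Gst genes measured outside the list, 6 were higher and 3 lower, with a median of 0.04 and a range from -0.14 (Gstt3) to 0.40 (Gstm7). The 6 on the list stood between the 51.3 and 97.4 percentiles of signal and the other 9 between the 14.5 and 55.2 percentiles. The part of signal level in these directions was not tested. Gstm5, a transferase of the mu class, had signals of 7.55, 7.03, 7.42 and 7.72 with empty vector and 7.30, 6.85, 7.34 and 7.08 with ATF4. The ATF4 array was lower in 4 of 4 pairs, and the gap was widest in experiment 4 (-0.63). The means were 7.43 ± 0.29 and 7.14 ± 0.23 (SD, n = 4), a difference of -0.29 (SE 0.12, unadjusted p = 0.0493, adjusted p = 0.827), or -0.17 without experiment 4.

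Gstk1, the kappa class transferase of mitochondria and peroxisomes, had signals of 6.12, 5.67, 6.07 and 6.51 with empty vector and 6.02, 5.55, 6.01 and 5.70 with ATF4. It was lower in 4 of 4 pairs, at -0.81 in experiment 4 and between -0.12 and -0.05 in the others. Its difference of -0.27 (SE 0.15, unadjusted p = 0.114, adjusted p = 0.846) was -0.09 without experiment 4. Gstm2 had signals of 4.65, 4.44, 4.72 and 4.59 with empty vector and 4.69, 4.32, 4.75 and 3.16 with ATF4. A single array, that of ATF4 in experiment 4, stood apart, and the difference of -0.37 (SE 0.24, unadjusted p = 0.168, adjusted p = 0.853) was -0.01 without that experiment. Gstm1 differed by -0.24 (SE 0.18), Gsta4, which conjugates lipid aldehydes such as hydroxynonenal, by -0.16 (SE 0.12) and Gsto1 by -0.03 (SE 0.12). The mu class genes are close in sequence, and hybridisation across them was not tested.

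Of the 4 glutathione peroxidases 3 were higher and 1 lower. Gpx1, the abundant cytosolic selenoenzyme, had signals of 6.69, 6.69, 7.55 and 6.56 with empty vector and 7.15, 7.23, 7.37 and 6.83 with ATF4. The empty-vector array of experiment 3 stood above the other 3, and that pair alone was lower with ATF4. The means were 6.87 ± 0.46 and 7.15 ± 0.23 (SD, n = 4), a difference of 0.28 (SE 0.14, unadjusted p = 0.0838, adjusted p = 0.846), or 0.43 without experiment 3 and 0.19 without experiment 2. Gpx7, of the endoplasmic reticulum, differed by 0.16 (SE 0.20), Gpx4, which reduces lipid hydroperoxides, by 0.05 (SE 0.13) and Gpx3, the secreted form, by -0.13 (SE 0.11).

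Macrophages express Gpx1 too, and their markers also differed most in experiments 1 and 2. Of 12 listed macrophage marker symbols, which include Emr1 and Adgre1 for the same gene, 10 were measured. With ATF4, 9 of the 10 were higher and 1 lower, where 45.5% of all genes were lower. An unadjusted p under 0.05 was seen for 2 of the 10, where 6.00% of all probe sets had one. Averaged over the 10 markers, experiments 1 to 4 gave differences of 0.41, 0.44, 0.07 and 0.10, where Gpx1 differed by 0.46, 0.54, -0.17 and 0.28. Their summed signal, after reversing the log2, ranged from 819 to 1672 with empty vector and from 883 to 1742 with ATF4, and both maxima came from experiment 3. No marker has a zero on this scale. Fibroblast markers averaged 0.15, -0.11, -0.12 and 0.33 in experiments 1 to 4, and neutrophil markers 0.16, -0.62, -0.57 and 0.17. The part of any of these markers in the Gpx1 values was not tested.

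The superoxide dismutases went in opposite directions. Sod2, the manganese enzyme of mitochondria, had signals of 6.12, 5.92, 5.96 and 7.00 with empty vector and 5.82, 5.18, 5.99 and 6.32 with ATF4. It was lower in experiments 1, 2 and 4, level in experiment 3, and highest in experiment 4 in both legs. The means were 6.25 ± 0.51 and 5.83 ± 0.48 (SD, n = 4), a difference of -0.42 (SE 0.15, 95% interval -0.77 to -0.07, unadjusted p = 0.0232, adjusted p = 0.786). Leaving out each experiment in turn gave values from -0.57 to -0.31.

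Sod3, the extracellular copper-zinc enzyme, had signals of 4.23, 4.29, 4.57 and 4.35 with empty vector and 4.59, 4.83, 4.56 and 4.57 with ATF4. It was higher in 3 of 4 pairs and level in experiment 3. The difference was 0.28 (SE 0.13, 95% interval -0.02 to 0.57, unadjusted p = 0.0606, adjusted p = 0.846), and 0.19 without experiment 2. Cat, catalase of the peroxisome, differed by -0.04 (SE 0.13) with 0.34 in experiment 1 and lower values in the others. Whether Sod2 and Sod3 responded differently was not tested.

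**Figure D2:**
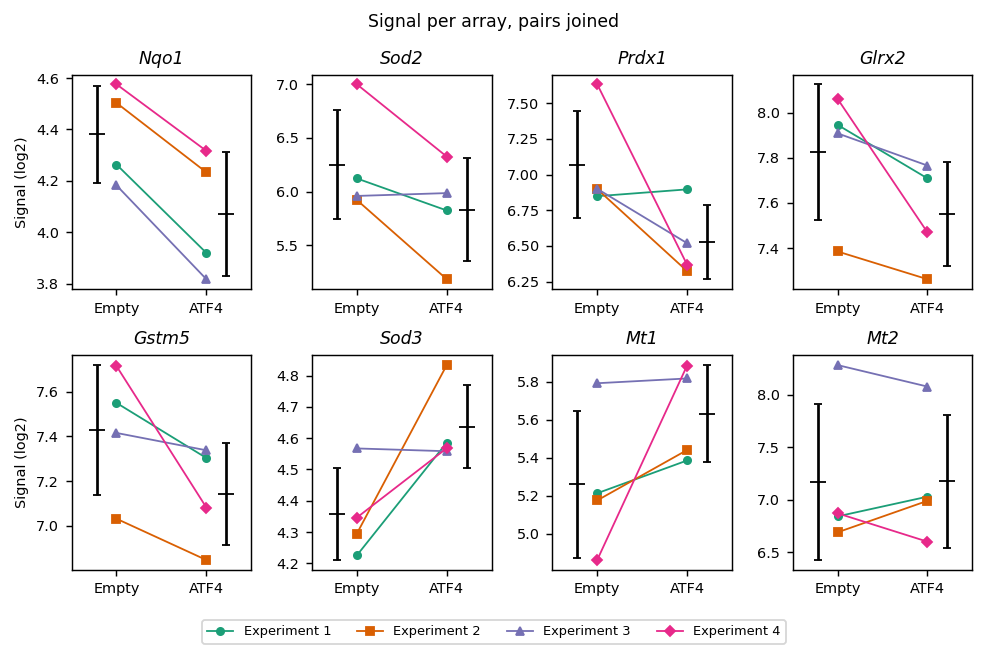
Log2 signal on each array for 8 genes, with the empty-vector and the ATF4 array of an experiment joined by a line, and the mean ± SD (n = 4) of each group drawn beside the points in black. Vertical axes differ between panels and do not start at 0. The lines of Nqo1 run in parallel, those of Prdx1 and Mt1 are steepest in experiment 4, and Mt2 is set apart by experiment 3 in both groups.

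Metallothioneins are small cysteine-rich proteins that bind zinc and copper, and zinc, glucocorticoids and inflammation induce them through the factor MTF-1 and others. Mt1 had signals of 5.21, 5.18, 5.79 and 4.86 with empty vector and 5.39, 5.44, 5.82 and 5.88 with ATF4. It was the single gene of the 42 that was higher in 4 of 4 pairs, by as little as 0.03 in experiment 3 and by 1.02 in experiment 4. The difference was 0.37 (SE 0.17, unadjusted p = 0.0633, adjusted p = 0.846), or 0.15 without experiment 4. Mt2 had signals of 6.84, 6.69, 8.28 and 6.87 with empty vector and 7.03, 6.99, 8.08 and 6.60 with ATF4. Experiment 3 was high in both legs by over 1 log2 unit, and the group means nearly coincided, with a difference of 0.003 (SE 0.13, 95% interval -0.30 to 0.31).

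Mt1 and Mt2 are neighbours on chromosome 8, with window starts 6471 bases apart, and both were higher in experiment 3 than in experiments 1 and 2 in either leg. They parted in experiment 4, where Mt1 differed by 1.02 and Mt2 by -0.27. Their promoter windows are shown because they hold the letters TGCNCNC (in capitals, either strand). These letters are used here as a loose form of the metal response element, which MTF-1 binds, and binding was not measured. Mt1 lies at chr8:94178839-94179138 and Mt2 at chr8:94172368-94172667, both on the plus strand of GRCm38.p6, from RefSeq.
Mt1: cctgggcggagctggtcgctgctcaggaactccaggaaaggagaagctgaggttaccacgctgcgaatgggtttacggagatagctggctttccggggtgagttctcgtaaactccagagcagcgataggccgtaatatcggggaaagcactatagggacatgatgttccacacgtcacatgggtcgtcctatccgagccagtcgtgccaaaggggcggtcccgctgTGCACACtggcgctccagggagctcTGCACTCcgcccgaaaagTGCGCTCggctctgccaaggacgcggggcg
Mt2: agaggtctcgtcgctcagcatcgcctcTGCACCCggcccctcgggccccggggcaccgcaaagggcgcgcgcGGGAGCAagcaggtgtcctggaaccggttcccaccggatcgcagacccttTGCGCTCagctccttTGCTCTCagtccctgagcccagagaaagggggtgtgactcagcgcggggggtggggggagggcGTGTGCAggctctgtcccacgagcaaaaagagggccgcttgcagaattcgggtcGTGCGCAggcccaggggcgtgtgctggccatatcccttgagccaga
The Mt1 window held 3 matches and the Mt2 window 6. Such letters are common: 50.4% of all windows held at least 1, 6.95% held 3 or more and 0.207% held 6 or more. Of the 36 windows, 17 (47.2%) held at least 1. No match to one of the 3 motifs overlapped a match to another in these 36 windows. Msra, which repairs oxidised methionine and completes the list, differed by -0.04 (SE 0.15).

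The level of these genes also varied between experiments, whichever plasmid was used. The mean of a pair ranged over 0.51 log2 units across the 4 experiments for the median gene of the 42, against 0.40 for the median of all probe sets. Mt2 and Glrx3 spanned most, 1.45 log2 units each, and Srxn1 least, 0.07. The SD over the 4 empty-vector arrays had a median of 0.34 for the 42 genes, against 0.24 for all probe sets.

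The number of the 42 genes that were lower was 22, 24, 29 and 27 in experiments 1 to 4, with medians of -0.0009, -0.09, -0.06 and -0.13. Of all probe sets, 51.9%, 49.8%, 47.4% and 42.8% were lower. The lowest of a gene's 4 differences came from experiment 1 for 4 genes, from experiment 2 for 9, from experiment 3 for 14 and from experiment 4 for 15. Of all probe sets, 29.1%, 25.7%, 17.1% and 28.1% had their lowest difference in experiments 1, 2, 3 and 4. Experiment 4, in which the Atf4 probe set was not higher with ATF4, also differed in its range of signals. Over all probe sets, signals in experiment 4 were spread less widely on the ATF4 array (SD 1.14) than on its partner (SD 1.31), and bright probe sets were lower as a whole. Of all probe sets in the brightest 25%, 73.6% were lower in experiment 4, with a median of -0.25, against medians of 0.03, 0.007 and -0.03 in experiments 1 to 3. Of the 42 genes, 21 belong to that brightest 25%, and 16 of these 21 were lower in experiment 4, with a median of -0.28. The bright 21 had 12, 13 and 17 lower genes in experiments 1 to 3, where 45.3%, 48.9% and 56.2% of bright probe sets were. The other 21 had a median of -0.0003 in experiment 4, against 0.17 for all other probe sets. Sod2, Prdx1, Glrx2, Gstm5, Gstk1 and Prdx3 are all among the bright 21, and Nqo1 is not. With quantile normalization, which gives all arrays the same spread, Prdx1 differed by -0.47, Sod2 by -0.36, Glrx2 by -0.20 and Gstm5 by -0.19. The part of signal level in these differences was not tested.

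**Figure D3:**
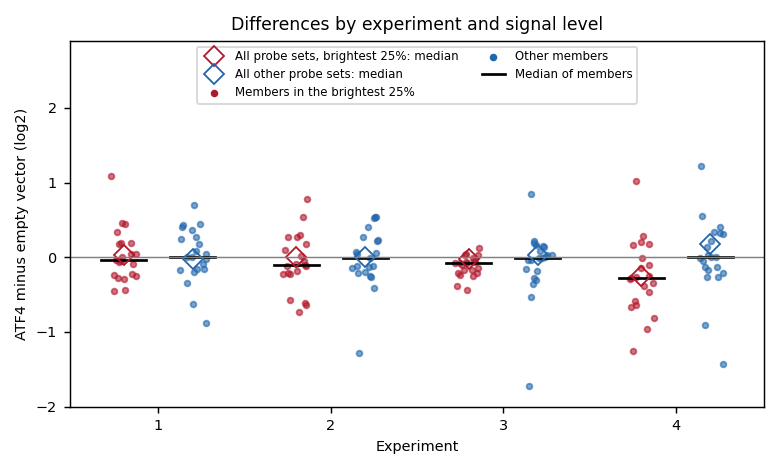
Difference between the ATF4 and the empty-vector array (log2) for each of the 42 genes in each experiment, with the 21 genes in the brightest 25% of probe sets in red and the other 21 in blue. Black bars are medians of the genes, and open diamonds are the medians of all probe sets of the same class. In experiment 4 the red bar (-0.28) and the red diamond (-0.25) lie close together below 0.

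**Figure D4:**
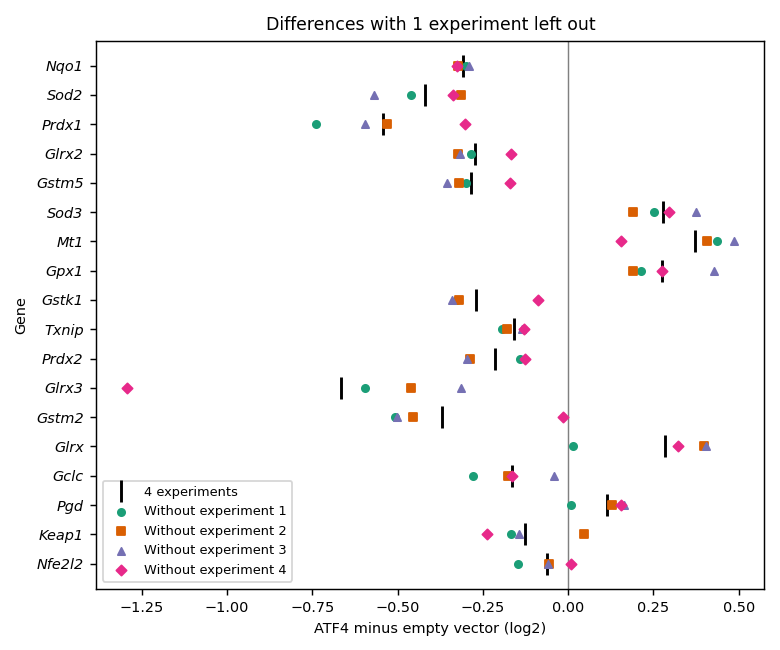
Fitted difference (log2, horizontal axis) of 18 genes with all 4 experiments (black tick) and with each experiment left out in turn (coloured symbols). Nqo1 stays between -0.33 and -0.29, while Glrx3, Prdx1, Gstm2 and Mt1 shift most when experiment 4 is left out.

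Redox genes outside the list were divided nearly evenly. Of 103 further gene symbols named for this purpose, which include older names of some of the same genes, 82 were measured. Of these 82 genes, 42 were higher and 40 lower, with a median of 0.04. In limma 0 had an adjusted p under 0.05. At an unadjusted p under 0.05, 4 (4.88%) were higher and 5 (6.10%) lower, against 3.23% and 2.77% of all probe sets. The 4 higher genes with the smallest p were Cyb5r3, a cytochrome b5 reductase (0.55, SE 0.14), Slc7a11, the cystine carrier that feeds glutathione synthesis (0.48, SE 0.13), Gstm7 (0.40, SE 0.14) and Gpx8 (0.32, SE 0.12). The 4 lower ones were the microsomal transferases Mgst3 (-0.47, SE 0.13) and Mgst1 (-0.43, SE 0.14), Txndc12, a thioredoxin-like protein of the endoplasmic reticulum (-0.37, SE 0.12), and the selenoprotein gene Selenok (-0.73, SE 0.25). Each of these 8 kept its direction in 4 of 4 pairs, and their adjusted p-values ran from 0.751 to 0.789. Of all 82, 12 (14.6%) were higher and 11 (13.4%) lower in 4 of 4 pairs, where 8.25% and 6.64% of all probe sets were. Cyb5r3 and Gstm7, 2 of the 82 (2.44%), lay wholly above the empty-vector arrays, where 1.41% of all probe sets did. Mgst3 and Cul3, also 2.44%, lay wholly below, where 0.752% did.

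Mgst3 and Mgst1 were thus lower, as were the 6 transferases of the list, whereas Gstm7 and 5 of the other 8 Gst genes outside it were higher. Mgst3 had signals of 7.31, 7.10, 7.18 and 7.34 with empty vector and 6.96, 6.80, 6.83 and 6.44 with ATF4. Its pairs differed by -0.35, -0.31, -0.34 and -0.90, so experiments 1 to 3 were alike and experiment 4 added to the gap. Slc7a11, which supplies the cysteine for glutathione, differed by 0.45, 0.32, 0.68 and 0.45, at the 13.7 percentile of signal. In limma its unadjusted p was 0.00663 and its adjusted p 0.754. The synthesis genes Gclc and Gss had unadjusted p-values of 0.268 and 0.840 in limma, and adjusted ones of 0.871 and 0.983.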

How the data were processed

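RNA of 8 muscles was hybridised to mouse exon arrays. The deposited values are log2 signals made by the authors with RMA, per the submitters' processing notes, which give no version or settings. The notes also name the build hg18, with no role stated. That the scale is log2 follows from RMA and the range of the values. Of 16755 probe sets, 14996 are annotated to 1 gene, 1019 to several and 740 to none, and a gene was read from its single-gene probe set with the highest mean. Scanner signals were not used here, and the number of arrays limits the precision.

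ATF4 minus empty vector was fitted on all probe sets with limma 3.58.1 in R 4.3.3, with the experiment as a fixed block and a variance prior that follows the mean (trend, 3 residual and 4.96 prior degrees of freedom). Tests were two-sided, with Benjamini-Hochberg adjustment and a cutoff of 0.05. The pairing comes from the series design, which sets right against left muscle. Paired arrays' deviations from their group means correlated at 0.07, 0.31, 0.55 and 0.05 in experiments 1 to 4. If an experiment is a pool or the arrays are technical, p-values measure only the spread between these samples. The fit was tested on simulated data.

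The members and lists were chosen with earlier results of these data known. Genes given with values on every array are Nfe2l2, Keap1, the 14 of smallest p and the smallest p of each role group. Txn1, Mt2, Mgst3 and the Gst genes outside the list were chosen after their values were seen. Promoter windows came from RefSeq (GRCm38.p6), using the first start listed for a gene. Alternatives were no block, a random block (statmod 1.5.0), other variance priors, median centring, quantile normalization, filters on dim probe sets, array weights, averaging the probe sets of a gene, and omitting each experiment.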

Additional observations from a re-analysis of the deposited data

Results flagged for a closer look

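Of 84 groups of 4 arrays (42 genes in 2 groups), 5 had a single array well apart from its group, and about 4.2, or 1 in 20, would by chance. With empty vector, Prdx1 reached 7.63 in experiment 4, compared with 6.85 to 6.90 elsewhere. In the empty-vector muscle of experiment 3, Gpx1 reached 7.55, compared with 6.56 to 6.69, and Mt2 8.28, compared with 6.69 to 6.87. The macrophage markers summed highest in that same experiment, at 1672 with empty vector. So did the fibroblast and neutrophil markers, at 1016 and 155, though experiment 2 came close at 1004 and 152. The part of any of these markers in the Gpx1 and Mt2 values was not tested. In experiment 2, Taldo1 was as low as 5.99 with empty vector, compared with 6.85 to 6.91, and Sod3 as high as 4.83 with ATF4, compared with 4.56 to 4.59.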

How the results depend on the processing

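No gene of the 42 had an adjusted p under 0.05 in limma under any of the 14 alternatives, and the lowest adjusted p among the 18 genes given in full was 0.291 (Glrx3 with array weights). The count at an unadjusted p under 0.05, 5 as reported and all lower, was less stable. It was 1 (1 lower) with no block for the pairing, 3 with a random block (2 lower, 1 higher), 3 (all lower) without trend, with the robust prior, with median centring and without the dimmest 25%, 2 (both lower) without the dimmest 50%, and 4 with array weights (3 lower, 1 higher). Quantile normalization gave 5 (4 lower, 1 higher). Leaving out each experiment in turn gave from 0 to 5, with 0 to 3 lower and 0 to 3 higher. The share of all probe sets with such a p moved too: 3.63% with no block, 6.34% with a random block and 5.88% without trend. It was 6.04% with the robust prior, 5.54% with median centring, 6.42% with quantile normalization and 8.62% with array weights. Without the dimmest 25% and 50%, which left 40 and 34 of the 42 genes, it was 6.28% and 7.02%. With an experiment left out it ran from 4.58% to 6.71%. The cause of these shifts was not tested, beyond the fewer samples or genes that some alternatives hold. The median difference over the genes stayed between -0.08 and -0.04. The block for the pairing changed no call by adjusted p. Of 248 values of single genes under the alternatives, 245 kept their direction and 3 turned. Keap1 turned without experiment 2: omitting each experiment gave log2 differences from -0.236 to 0.0457. Nfe2l2 turned without experiment 4, with a range from -0.147 to 0.00838, and with quantile normalization, at 0.0222. The number of pairs, background at dim probe sets and the narrower signal range of 1 array in experiment 4 limit what these values can show.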
